A study of Mus musculus with 9 samples.

Results

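The 35 genes described here are targets of p53, the transcription factor that DNA damage stabilises, and were taken by symbol from the 40879 gene symbols of the count files, where all 35 were found. Cdkn1a, the best known target, is not among them and is given only for reference. When DNA is broken, damage kinases free p53 from Mdm2, the ubiquitin ligase that keeps its level low, and p53 then binds response elements near its targets and raises their transcription. The targets fall into groups that restrain p53 itself, drive cell death, halt growth, repair DNA or shift metabolism, and in skeletal muscle cells the pathway is known both for arrest after irradiation and for a part in differentiation.

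RNA was measured in engineered 3D muscle. Its C2C12 cells are mouse myoblasts, an established line able to form multinucleate myotubes, and were embedded in matrix from muscle tissue. Growth medium was used for 2 days, then differentiation medium with 10% equine serum for 10 days. Normal constructs had no radiation, the irradiated group was given 20 Gy of X-rays in 1 dose to make cells senescent, and cocultured constructs were unirradiated ones that shared a dish with an irradiated construct. Each group has 3 libraries labelled biological replicates, although the series text counts 2 for the normal and irradiated conditions. Constructs of a condition were kept in pairs in a dish, which means that libraries of a group can be dish partners. Every p-value here measures the spread between these libraries alone. All 9 libraries come from the same cell line, and the time from irradiation to harvest is not given in the sources used here.

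A p53 response element is made of a pair of decamers, each with a C, then A or T letters, then a G at its core. To show what such elements look like in this gene set, RefSeq promoter windows of build GRCm38.p6, 250 bases before to 50 after an annotated start, were searched for 2 p53 consensus decamers with both cores intact, at most 13 bases between them and at most 3 mismatches in all. The consensus reads alike on both strands. Windows were found for 25 of the 35 symbols, and 7 of these 25 (28%) held a match, as did 7.63% of 27025 genes in the table. At most 2 mismatches gave 4 of 25 (16%) against 2.47% of all genes, and at most 4 gave 9 of 25 (36%) against 17.0%. The limit of 3 was set after these counts were seen, and a match is a description of letters, not a bound site. The 7 matches are printed 5′ to 3′ on the gene's strand, with the core letters of each decamer in capitals.
Bbc3: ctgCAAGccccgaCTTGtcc
Bax: tgaCAAGcatatcccaggCAAGctt
Aen: gggCTTGtccgggCAAGgag
Sesn1: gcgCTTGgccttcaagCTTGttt
Tigar: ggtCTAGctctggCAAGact
Gtse1: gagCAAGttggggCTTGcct
Ckap2: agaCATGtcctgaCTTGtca
The Bbc3 match lies at chr7:16309486-16309505 on the plus strand, starting 97 bases before an annotated start. That of Bax lies at chr7:45467090-45467114 on the minus strand, starting 216 bases before the start, and that of Sesn1 at chr10:41887253-41887275 on the plus strand, 186 bases before 1 of its starts. Tigar has its match at chr6:127109746-127109765 (minus strand, 213 bases before the start) and Ckap2 at chr8:22186003-22186022 (minus strand, 203 bases before). The matches of Aen, at chr7:78895937-78895956 (plus strand), and Gtse1, at chr15:85859945-85859964 (plus strand), begin within 10 bases of a start. The build is older than the one named for the count files, so these positions do not apply to it.

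Library totals ranged from 4840993 to 8290468 counts. The 35 genes together held 3355 to 3830 raw counts in normal, 4992 to 14389 in irradiated and 8311 to 9703 in cocultured libraries. Levels are given as CPM, counts scaled to a common library size with TMM factors. The summed CPM of the 35 were 787 to 918 in normal, 1063 to 1353 in irradiated and 890 to 1097 in cocultured libraries. Over all 9 libraries single genes had from 31 counts, for Ddb2, to 7269, for Ephx1. The labels state no molecular identifiers, and read counts are not counts of molecules. Counts were present in all 9 libraries for 16 of the 35, in 4 to 8 libraries for 14, and in 3 or fewer for 5 (Trp53cor1, Perp, Aen, Pidd1 and Ddb2). The test kept 32 of the 35. Perp had 238 counts, all in irradiated 2, Ddb2 had 31, all in normal 3, and Pidd1 had 46, in normal 1 and cocultured 1, and these 3 did not pass the filter on low counts. Normal 3 and irradiated 1 stand apart in composition. The summed level of 12 muscle cell markers was 34015 and 24097 CPM there, against 3532 to 6213 in the other 7. Titin, Ttn, made up most of the sum in normal 3 and irradiated 1. Transcripts of the mitochondrial genome took 29.7% and 21.6% of their counts, against 5.76% to 13.4% in the other 7. Normal 1 and normal 2 differ in another way. The single gene Gm26917 took 23.9% and 27.4% of their counts, against 3.38% to 12.0% in the other 7 libraries. Of all genes tested, 34.7% were at 0 in irradiated 2 and 32.0% in irradiated 3, against 5.13% to 22.4% in the other 7. Among the tested p53 targets 8 and 10 of 32 (25% and 31.2%) were at 0 in those libraries, and none in cocultured 1, as the bars of genes at 0 by library show.

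**Figure D1:**
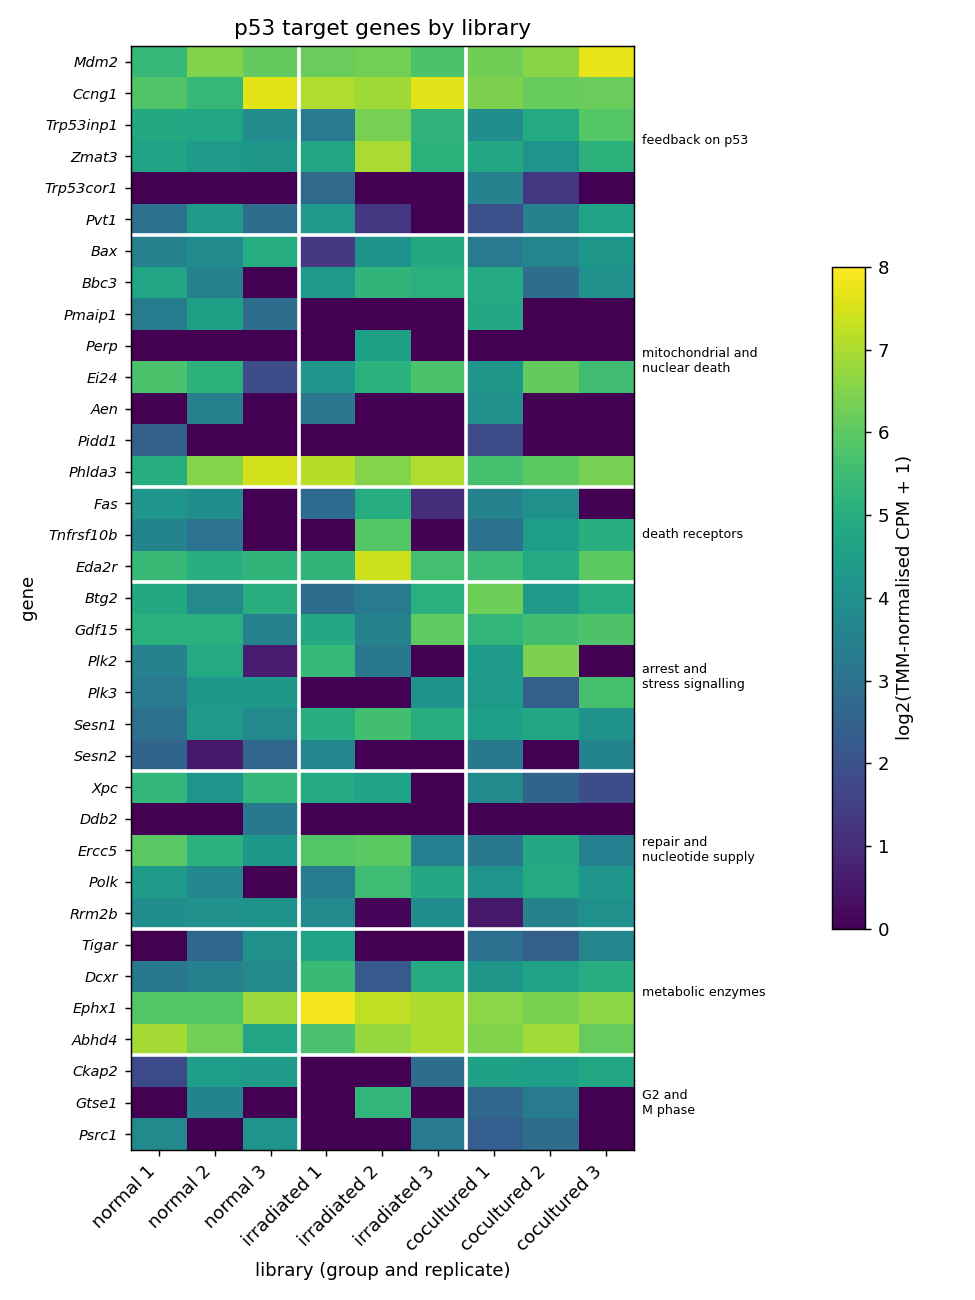
Levels of the 35 p53 targets (rows, grouped by role) in the 9 libraries (columns), as log2 of TMM-normalised CPM plus 1, from 0 (dark) to 8 (bright). Perp has counts in irradiated 2 alone, Pmaip1 is at 0 in the 3 irradiated libraries, and Mdm2 and Ccng1 are present in every library.

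Irradiated constructs were compared with normal ones to ask which targets follow irradiation. None of the 32 tested members passed the quasi-likelihood test of edgeR after Benjamini-Hochberg adjustment over all 11980 genes, where 0.0584% of all genes were called. At an unadjusted p under 0.05 there was 1 higher member, Ephx1, where 1.59% of all genes were higher, and 1 lower, Pmaip1, where 8.7% of all genes were lower. limma voom called 0 members (0.209% of all genes) and had 3 at an unadjusted p under 0.05, where 14.1% of all genes were. DESeq2 called 1, Pmaip1, lower (3.89% of all genes called), and had 3 at an unadjusted p under 0.05, where 12.6% of all genes were. The median log2 fold change of the 32 was 0.27, against -0.21 for all genes tested, and 22 of the 32 (68.8%) were positive, against 41.8% of all genes. These are descriptions of the list and not a test of it. With limma voom 16 were positive and 16 negative (median 0.06, and -0.96 for all genes), with the replicate number as a block 17 and 15, and without irradiated 1 also 17 and 15 of those then tested. The sign turned for 15 of the 32 when some 1 library was left out. The median was 0.02 without both normal 3 and irradiated 1, and that of all genes was -0.48 there.

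Ephx1, the microsomal epoxide hydrolase that detoxifies epoxides, held 56.7, 57.5 and 110.3 CPM in normal 1, 2 and 3, 231, 148 and 129 in irradiated 1, 2 and 3, and 97.3, 82.4 and 98.9 in cocultured 1, 2 and 3. Each irradiated library lay above each normal and each cocultured library. The mean went from 74.8 ± 30.7 to 169 ± 54.1 CPM (SD, n = 3). The log2 difference of 1.18 ± 0.41 (SE) did not pass (edgeR adjusted p = 0.483). The highest normal and the highest irradiated value fell in normal 3 and irradiated 1, the libraries with the highest muscle marker sums, and the part of that in the result was not tested. With either library left out the log2 was 1.57 and 0.89.

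Sesn1, a sestrin that is induced by stress and restrains growth signalling through mTORC1, held 6.78, 19.1 and 13.1 CPM in the normal libraries and 32.2, 46.7 and 30.9 in the irradiated ones. The groups did not overlap, and the cocultured libraries lay between, at 21.6, 26.4 and 16.2 CPM, with 1 of them below the highest normal value. Against normal constructs the log2 difference was 1.49 ± 1.02 (edgeR adjusted p = 0.822), and it ran from 1.2 to 1.88 as each library was left out. Its paralogue Sesn2 had no counts in irradiated 2 and irradiated 3 and held 11.9 CPM in irradiated 1.

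Zmat3, which encodes an RNA-binding zinc finger protein, held 24.2, 19.1 and 17.8 CPM in normal libraries. It stood at 25.1, 125 and 34.5 CPM in irradiated 1, 2 and 3. The groups did not overlap, but irradiated 1 exceeded normal 1 by under 1 CPM. The log2 difference was 1.60 ± 0.84 (edgeR adjusted p = 0.551), and 0.55 without irradiated 2. Of the 32 tested members, 3 were higher in all irradiated than in all normal libraries (Ephx1, Sesn1 and Zmat3), where 3.94% of all genes tested were, and 1, Pmaip1, was lower, where 11.8% were.

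Irradiated 2 also held the highest values of the 3 members listed under death receptors (Eda2r, Tnfrsf10b and Fas). That heading does not show that each of them triggers cell death. Eda2r, the receptor for ectodysplasin A2, held 40.9, 31.8 and 36.7 CPM in normal libraries, 36.6 and 47.6 in irradiated 1 and 3 and 166 in irradiated 2. Its log2 difference was 1.19 ± 0.67 (edgeR adjusted p = 0.621), and 0.21 without irradiated 2. Tnfrsf10b, the mouse TRAIL receptor, held 58.6 CPM in irradiated 2 and no count in irradiated 1 and irradiated 3, and Fas held 30.2, 5.96 and 1.06 CPM in irradiated 2, 1 and 3. In this library 10 of the 32 tested members (31.2%) had their highest value of the 9, against 13.4% of all genes tested, and between 0 and 5 did in each of the others. The part of the many genes at 0 in irradiated 2 in these values was not tested.

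**Figure D2:**
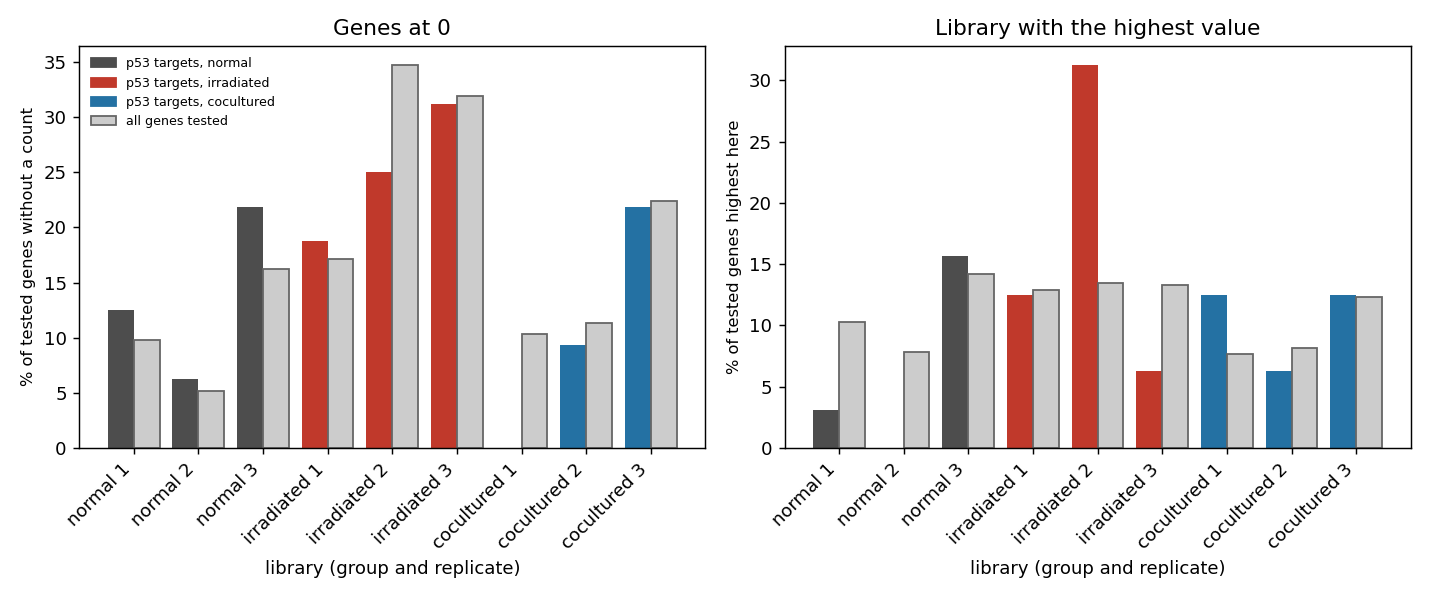
For each library, the share of tested genes without a count (left) and the share whose highest value lies in that library (right), for the 32 tested p53 targets (coloured by group) and for all 11980 genes tested (grey). Irradiated 2 holds the highest value of 31.2% of the targets and of 13.4% of all genes.

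Of the 6 members listed under feedback on p53, 5 had a positive log2 difference and 1, Pvt1, a negative one. The median of the 6 was 0.75, and none passed. The listing does not show that each of them acts on p53. Mdm2 held 39.8, 88.9 and 66.2 CPM in normal and 71.3, 77.2 and 51.7 in irradiated libraries. These ranges overlap throughout, with means of 65.0 ± 24.5 and 66.8 ± 13.3 (log2 0.04 ± 0.50, edgeR adjusted p = 1), and the sign turned when normal 1, irradiated 1 or irradiated 2 was left out. Ccng1, the cyclin G1 that recruits a phosphatase to Mdm2, held 56.1, 39.3 and 202 CPM in normal and 131, 115 and 197 in irradiated libraries. Its log2 difference was 0.57 ± 0.55 (edgeR adjusted p = 1), and 1.63 without normal 3, whose value exceeds all irradiated ones. Trp53inp1, a stress protein of autophagy and cell death, averaged 22.3 ± 7.79 CPM without and 42.2 ± 36.8 after irradiation, with 81.8 in irradiated 2. Pvt1, a long noncoding RNA, went from 10.8 ± 7.20 to 6.79 ± 10.6 CPM. Trp53cor1, the noncoding RNA lincRNA-p21 made next to Cdkn1a, had no count in normal libraries, 27 counts in irradiated 1 and none in irradiated 2 and 3. Against a floor of 3 counts over the normal group this is at least 4.88-fold higher (edgeR adjusted p = 0.619), for counting error only. The value rests on irradiated 1 alone, and the strand setting of the counting is not given in the sources used here.

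Among death genes of the mitochondrial route, Pmaip1, the BH3-only protein Noxa, held 9.24, 22.3 and 6.29 CPM in normal libraries and no count in any irradiated one. Set against a floor of 3 counts over the irradiated group, it was at least 102-fold lower (edgeR adjusted p = 0.483). The bound covers counting error only, and irradiated 2 and irradiated 3 are the libraries with most genes at 0. Cocultured 1 held all 258 cocultured counts, so 2 of the 3 unirradiated cocultured libraries were at 0 as well. Bbc3, the BH3-only protein Puma, held 25.9, 10.5 and 0 CPM in normal and 19.2, 36.7 and 32.7 in irradiated libraries, with overlap. Bax, the pore-forming protein, averaged 17.9 ± 10.4 and 15.3 ± 13.4 CPM, and Ei24, a membrane protein of the endoplasmic reticulum, 29.7 ± 25 and 34.3 ± 17.6. Phlda3, which competes with the kinase Akt for membrane lipids, held 30.8, 91.8 and 175 CPM in normal and 139, 90.1 and 131 in irradiated libraries. Its normal range spans the irradiated one. Aen, an exonuclease of apoptosis, had counts in 1 library of each group.

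**Figure D3:**
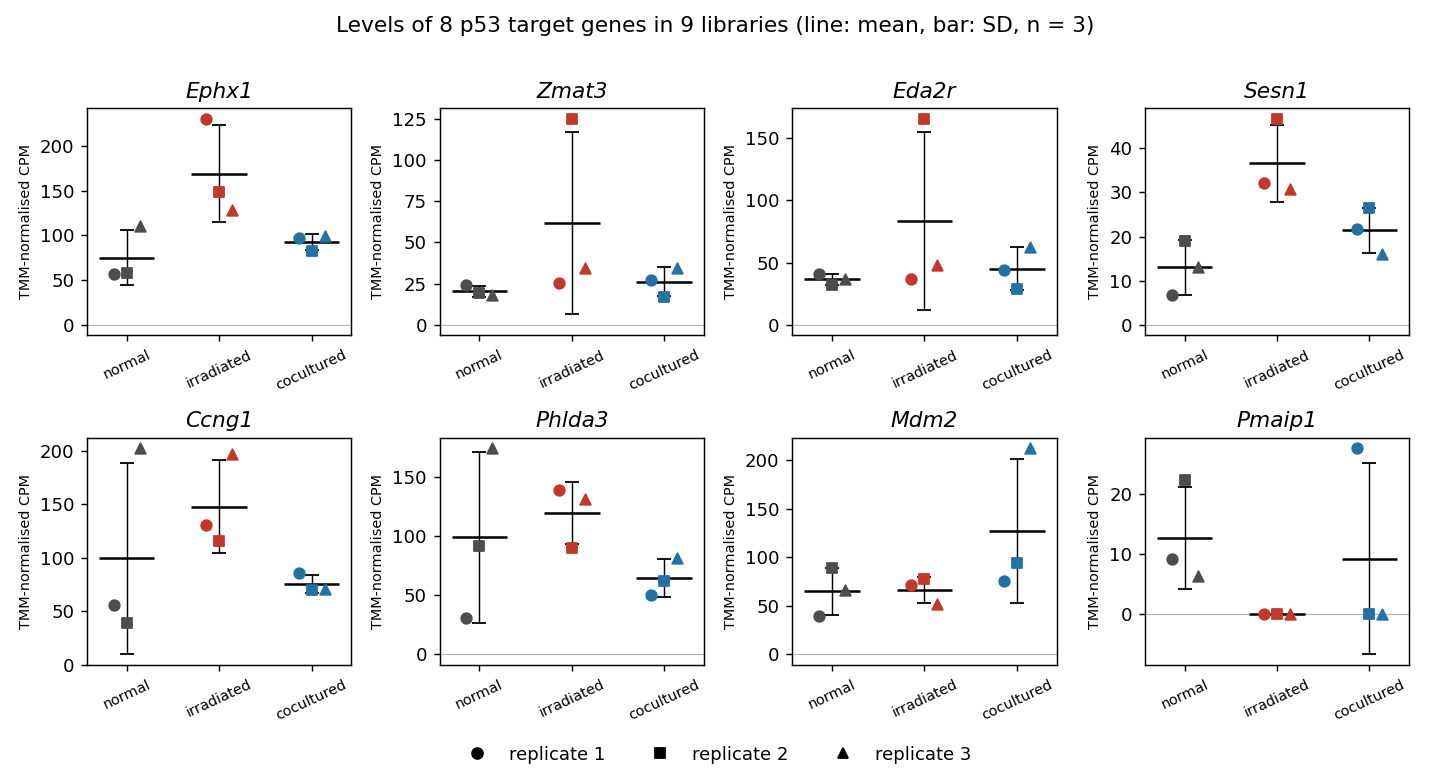
TMM-normalised CPM of 8 p53 targets in each library (marker shape: replicate number; line: mean; bar: SD, n = 3). Ephx1 and Sesn1 are higher in each irradiated than in each normal library, the irradiated means of Zmat3 and Eda2r rest on replicate 2, and Pmaip1 is at 0 in the irradiated libraries.

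Of the 6 members for arrest and stress signalling, 4 had a positive and 2 a negative log2 difference, with a median of 0.22, and none passed. Btg2, an antiproliferative factor, averaged 24.4 ± 10.3 CPM without and 15.9 ± 14.5 after irradiation, and Gdf15, a secreted stress cytokine, 25.5 ± 13.1 and 34.3 ± 27.2. The polo-like kinase Plk2 averaged 13.2 ± 14.1 and 16.1 ± 21.1 CPM, with no count in irradiated 3. Its relative Plk3 held 8.83, 18.4 and 18.3 CPM in normal libraries, none in irradiated 1 and 2 and 16.4 in irradiated 3. Repair genes showed no separation: Xpc, which recognises bulky lesions, averaged 31.1 ± 12.6 and 17.7 ± 15.5 CPM, the endonuclease gene Ercc5 37.8 ± 21.8 and 43.1 ± 28.9, the translesion polymerase gene Polk 10.9 ± 10.3 and 27.0 ± 17.6, and Rrm2b, the p53-inducible ribonucleotide reductase subunit, 15.3 ± 1.0 and 9.20 ± 7.91. Of the enzymes other than Ephx1, Dcxr, a carbonyl reductase, averaged 10.5 ± 2.23 and 25.2 ± 19.5 CPM, Abhd4, a lipid hydrolase, 74.8 ± 48.2 and 94.7 ± 39.7, and Tigar, a fructose bisphosphatase, 7.02 ± 7.92 and 8.09 ± 14. All of these groups overlapped.

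Of the 3 members with roles in mitosis, 1 had a positive and 2 a negative log2 difference, and none passed. Ckap2, a spindle protein, held 2.46, 21.4 and 20.2 CPM in normal, 0, 0 and 6.22 in irradiated and 22.9, 21.4 and 26.0 in cocultured libraries. The irradiated libraries lay below every cocultured one but not below normal 1, and the log2 difference from normal was -2.81 ± 2.14 (edgeR adjusted p = 0.917). Psrc1, a microtubule-binding protein, had no count in irradiated 1 and 2 and held 8.68 CPM in irradiated 3, while Gtse1, which binds p53 and microtubules, had all 398 irradiated counts in irradiated 2. Of 17 tested genes of a cell division list, 0 passed edgeR over all genes. At an unadjusted p under 0.05, 7 were lower, where 8.7% of all genes were. All 17 were negative, where 41.8% of all genes were positive. The median log2 of the 17 was -3.93, against -0.21 for all genes tested. In this list, Top2a averaged 137 ± 72.2 and 18.2 ± 10.2 CPM (log2 -2.91 ± 0.61, edgeR adjusted p = 0.124). edgeR called Top2a lower with the replicate number as a block (adjusted p = 0.0311) and without the low-count filter (adjusted p = 0.00126). Ccna2 went from 121 to 2 counts (edgeR adjusted p = 0.398), and Ccnb1 from 191 counts to 0, at least 118-fold lower against the floor (edgeR adjusted p = 0.483). Ccnb1 held 11.9, 30.2 and 0 CPM in normal 1, 2 and 3, so normal 3 had no count either and the groups overlapped. DESeq2 called Top2a, Ccna2 and Ccnb1 lower.

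The 7 members with a printed match to the response element gave 4 positive and 3 negative log2 values, from -2.81 for Ckap2 to 1.74 for Gtse1, with a median of 0.20. The 17 tested members with a window but no match gave 14 positive and 3 negative values, with a median of 0.28. No test was made of this difference.

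**Figure D4:**
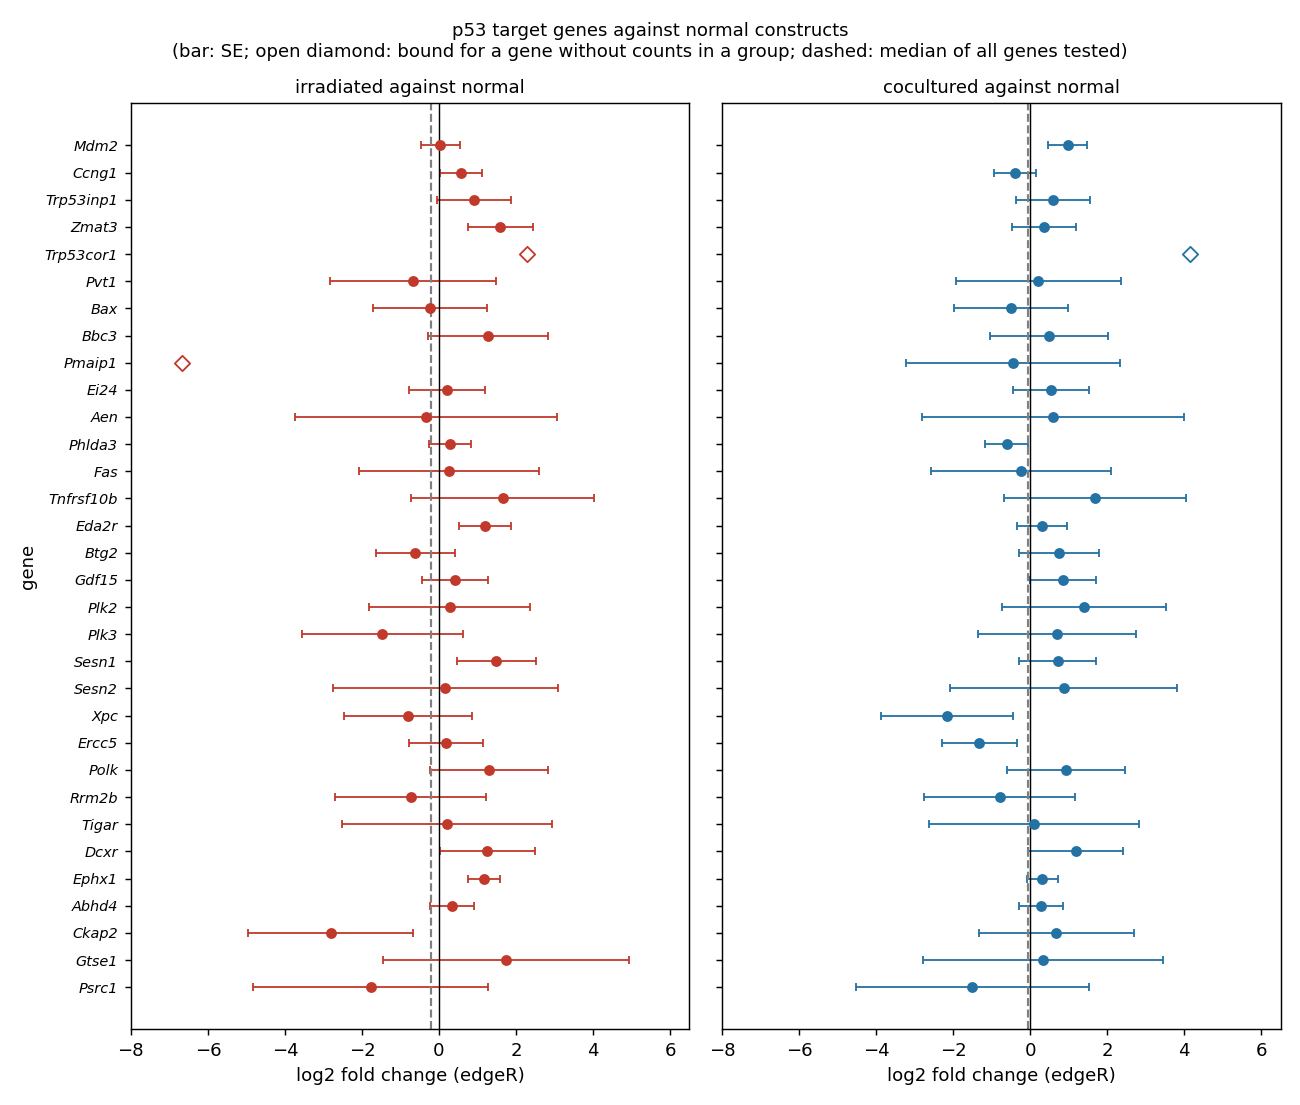
edgeR log2 fold changes of the 32 tested p53 targets in irradiated (left) and cocultured (right) against normal constructs, with approximate SE. Open diamonds are bounds for genes without counts in a group, the dashed line is the median of all genes tested (-0.21 and -0.07), and no member passed the test in either panel.

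Cocultured constructs were compared with normal ones to ask whether targets differ in unirradiated muscle kept beside irradiated muscle. edgeR called 0 genes in all (0%) and so no p53 target, and no target had an unadjusted p under 0.05, where 0.851% of all genes were higher and 3.26% lower. limma voom called 0 genes, and DESeq2 called 84 genes (0.734%), of which none was a target. Both had 0 targets at an unadjusted p under 0.05, where 5.08% of all genes were with limma voom and 5.85% with DESeq2. The median log2 of the 32 was 0.42, against -0.07 for all genes tested, and 23 were positive (71.9%, against 46.9% of all genes). These libraries are compared with the same normal libraries as above, so both medians share their normal values.

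Mdm2 held 75.4, 94.3 and 213 CPM in cocultured 1, 2 and 3. Of these, cocultured 1 lies within the normal range of 39.8 to 88.9, and the mean of 127 ± 74.3 rests on cocultured 3. The log2 difference was 0.97 ± 0.50 (edgeR adjusted p = 1), and 0.39 without cocultured 3. Gdf15 held 37.8, 46.8 and 53.5 CPM, above the normal libraries at 33.7, 32.5 and 10.4 (log2 0.85 ± 0.86, adjusted p = 1 in edgeR). Dcxr held 17.7, 23.4 and 30.4 CPM, above 8.42, 10.2 and 12.9 (log2 1.18 ± 1.23, adjusted p = 1 in edgeR). Ckap2 was the other member whose cocultured libraries all lay above the normal ones, so 3 of 32 did, where 5.66% of all genes tested did. For Ckap2 the margin was very small, with 21.41 CPM in cocultured 2 and 21.36 in normal 2.

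Of the 4 tested repair members, 1 had a positive and 3 a negative log2 difference in cocultured constructs, and none passed. The positive one, Polk, averaged 20.7 ± 6.67 CPM, against 10.9 ± 10.3. Xpc held 13.2, 4.96 and 2.71 CPM in cocultured 1, 2 and 3, below the normal libraries at 38.4, 16.6 and 38.3 (log2 -2.16 ± 1.72, edgeR adjusted p = 1). It was the 1 member of 32 whose cocultured libraries all lay below the normal ones, where 7.51% of all genes tested did. Ercc5 averaged 15.1 ± 10.5 CPM, against 37.8 ± 21.8 (log2 -1.32 ± 0.97, adjusted p = 1 in edgeR), with overlap. Phlda3 averaged 64.7 ± 15.8 and 99.1 ± 72.2 CPM (log2 -0.61 ± 0.55) and Ccng1 75.4 ± 8.74 and 99.2 ± 89.6 (log2 -0.39 ± 0.55), both at adjusted p = 1 in edgeR. Both signs turned without normal 3, to 0.08 and 0.66, and when library totals replaced the TMM factors, to 0.14 and 0.42. Ephx1 averaged 92.9 ± 9.08 CPM (log2 0.31 ± 0.41, adjusted p = 1 in edgeR). Trp53cor1 had 114 cocultured counts, at 10.7 CPM in cocultured 1 and 1.45 in cocultured 2, and was at least 17.6-fold higher than the floor of the normal group, for counting error only (edgeR adjusted p = 1).

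Irradiated constructs were then set directly against cocultured ones, the test of whether the 2 groups differ from each other. edgeR called 4 of 11980 genes (0.0334%), none of them a p53 target. At an unadjusted p under 0.05 there was 1 lower target, Pmaip1 (edgeR adjusted p = 0.493), where 7.33% of all genes were lower, and 0 higher, where 2.25% were. limma voom called 105 genes (0.876%) and no target, with 4 targets at an unadjusted p under 0.05, where 15.6% of all genes were, and DESeq2 called 473 genes (4.13%) and 1 target, Pmaip1, with 2 targets at an unadjusted p under 0.05, where 12.7% of all genes were. The median log2 of the 32 was 0.07, against -0.10 for all genes, and 18 of the 32 were positive (56.2%, against 46.7% of all genes). The sign of that median turned when library totals replaced the TMM factors, to -0.09, with limma voom, to -0.73, with the replicate number as a block, to -0.22, and without irradiated 2 or irradiated 3, to -0.13 in each case.

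Ephx1, Ccng1, Phlda3 and Sesn1 were the 4 members higher in every irradiated than in every cocultured library, where 3.9% of all genes tested were. Ephx1 differed by a log2 of 0.87 ± 0.41 (edgeR adjusted p = 0.493). For Ccng1 the irradiated values of 115 to 197 CPM lay above cocultured values of 85.5, 69.9 and 70.9 (log2 0.97 ± 0.55, edgeR adjusted p = 0.581). For Phlda3 the irradiated values of 90.1 to 139 CPM lay above 50.2, 62.3 and 81.6 (log2 0.89 ± 0.55, edgeR adjusted p = 0.644). Mdm2 went the other way, at 51.7 to 77.2 against 75.4 to 213 CPM (log2 -0.93 ± 0.50, edgeR adjusted p = 0.531), with irradiated 2 above cocultured 1. Ercc5 differed by 1.51 ± 0.98 (adjusted p = 0.686), Zmat3 by 1.23 ± 0.83 (adjusted p = 0.720, and 0.18 without irradiated 2) and Ckap2 by -3.48 ± 2.21 (adjusted p = 0.666) on the log2 scale in edgeR. Ckap2 was the 1 member lower in every irradiated than in every cocultured library, where 10.6% of all genes were. Pmaip1 was at least 73.7-fold lower against the floor, a bound that rests on cocultured 1.

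By group means, 15 of the 32 tested members were highest in irradiated, 12 in cocultured and 5 in normal constructs, or 46.9%, 37.5% and 15.6%, against 31.2%, 31.7% and 37.1% of all genes tested. The median coefficient of variation over members with counts was 66.7% in the normal, 87.7% in the irradiated and 65.5% in the cocultured group, against 57.1%, 89.7% and 56.4% over all genes tested.

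Other genes of the pathway came from lists chosen for their known roles, with earlier results of these data known. Of 22 genes for p53 and its regulators, 18 were tested and none passed in any of the 3 comparisons in edgeR. Trp53 itself averaged 28.9 ± 13.5 CPM in the normal, 16.8 ± 4.83 in the irradiated and 27.0 ± 8.75 in the cocultured group (log2 -0.78 ± 0.997 and -0.10 ± 0.99 against normal, edgeR adjusted p = 1 in both), and the sign of the cocultured difference turned with library totals, to 0.34, without normal 1, to 0.25, and without cocultured 1, to 0.15. Rps27l, a ribosomal protein paralogue that is itself a p53 target, held 69.2, 81.8 and 77.4 CPM in normal, 173, 207 and 267 in irradiated and 151, 177 and 102 in cocultured libraries. The normal libraries lay below all others. Its log2 difference from normal was 1.5 ± 0.36 in irradiated (edgeR adjusted p = 0.165) and 0.91 ± 0.35 in cocultured constructs (edgeR adjusted p = 1), and DESeq2 called the first. Hipk2, a kinase of p53, averaged 336 ± 129 CPM without and 117 ± 68.3 after irradiation (log2 -1.52 ± 0.48, edgeR adjusted p = 0.398), and 214 ± 92.5 in the cocultured group. The damage kinase gene Atr averaged 6.04 ± 4.10, 0.345 ± 0.597 and 18.8 ± 9.49 CPM in the normal, irradiated and cocultured group. Its log2 difference was -4.02 ± 2.43 in irradiated against normal (edgeR adjusted p = 0.699) and -5.66 ± 2.63 in irradiated against cocultured constructs (edgeR adjusted p = 0.493), and DESeq2 called the latter. Irradiated against cocultured, Mdm4, the partner of Mdm2, averaged 76.3 ± 55.7 and 25 ± 16 CPM (log2 1.61 ± 0.79, edgeR adjusted p = 0.493).

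Of 26 other p53 targets 20 were tested, and none passed in edgeR in any comparison. At an unadjusted p under 0.05, irradiated against normal constructs had 2 higher and 4 lower (1.59% and 8.7% of all genes). Cocultured against normal ones had 2 higher and 0 lower (0.851% and 3.26% of all genes). Irradiated against cocultured ones had 0 higher and 3 lower (2.25% and 7.33% of all genes). The median log2 of the 20 was 0.21, 0.36 and -0.64 in these 3 comparisons. For all genes tested it was -0.21, -0.07 and -0.10. Cdkn1a, the p21 inhibitor, held 969, 1365 and 655 CPM in normal, 1390.0, 1700.5 and 1754 in irradiated and 1225, 1207 and 1311 in cocultured libraries. The irradiated libraries lay above all others, and the differences of 0.70 ± 0.33 from normal (edgeR adjusted p = 0.486) and 0.37 ± 0.33 from cocultured constructs (edgeR adjusted p = 0.897), on the log2 scale, did not pass. Cocultured against normal constructs differed by 0.33 ± 0.33 (edgeR adjusted p = 1). Steap3, a metalloreductase, held 9.65, 40.0 and 31.2 CPM in normal and 159, 105 and 107 in irradiated libraries (log2 2.20 ± 0.59, edgeR adjusted p = 0.259), and 75.7, 89.7 and 40.7 in cocultured ones (log2 1.35 ± 0.58, adjusted p = 1). Fdxr, the ferredoxin reductase of mitochondria, had no count in normal libraries and counts in all 6 others, 401 over the irradiated and 354 over the cocultured group. The irradiated level was uneven, at 12.1, 0.376 and 39.9 CPM in irradiated 1, 2 and 3, so irradiated 2 held very little Fdxr. In cocultured libraries Fdxr ran from 8.68 to 16.3 CPM. It was at least 72.4-fold and at least 54.8-fold higher against a floor of 3 counts over the normal group, for counting error only (edgeR adjusted p = 0.413 and 1). Against normal constructs DESeq2 called Steap3 higher in irradiated ones and Fdxr higher in both groups. Cyfip2, which takes part in actin regulation, had no irradiated count and was at least 118-fold lower than in normal constructs (edgeR adjusted p = 0.424), and DESeq2 called it.

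Genes of smallest p in the other lists were also read in the remaining comparisons. Cocultured against normal, edgeR gave an adjusted p of 1 for each of them. The log2 differences were -0.65 ± 0.47 for Hipk2, 0.38 ± 0.44 for the acetyltransferase gene Ep300, 1.39 ± 0.90 for Ccng2, an atypical cyclin, 1.55 ± 1.69 for Ccna2, 1.45 ± 1.64 for Nusap1 and 1.08 ± 1.85 for Tpx2, both of the spindle. Irradiated against cocultured, Rap2b, a small GTPase, averaged 14.1 ± 4.98 and 61.4 ± 12.6 CPM (log2 -2.12 ± 0.68), and Cenpf, a kinetochore protein, 5.08 ± 8.69 and 82.8 ± 29.1 (log2 -4.06 ± 1.52), both at adjusted p = 0.493 in edgeR. Cyfip2 and the cytokine gene Lif had no irradiated count. Against the floor Cyfip2 was at least 63.1-fold lower and Lif at least 57.1-fold (edgeR adjusted p = 0.493 for both). In cocultured 1, 2 and 3 Cyfip2 held 4.93, 17.6 and 0.565 CPM. Lif held 0, 7.76 and 14.1 there, so cocultured 1 had no Lif count either. Ccna2 went from 802 cocultured to 2 irradiated counts (edgeR adjusted p = 0.375), and Top2a differed by a log2 of -2.76 ± 0.61 (edgeR adjusted p = 0.206). DESeq2 called Rap2b, Cyfip2, Lif, Ccna2 and Top2a lower, limma voom called Ccna2, and edgeR without the low-count filter called Top2a and Cenpf. edgeR also called Cenpf without irradiated 1. Hipk2 differed by -0.88 ± 0.47 (edgeR adjusted p = 0.531) and Trp53 by -0.68 ± 0.995 (edgeR adjusted p = 1).

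The labelled cell type was checked against marker genes. Of the 12 muscle cell markers, 10 had counts in all 9 libraries, among them Des, Myog and Myh3, while Myf5 was at 0 in the irradiated libraries and Cdh15 in irradiated 3. Lists for other cells were low but not all at 0. The summed level of 6 macrophage markers was 8.01 to 47.6 CPM in normal, 0 to 17.9 in irradiated and 0 to 4.07 in cocultured libraries, with Csf1r at 37.2 in normal 3 and Ptprc at no more than 0.107. That of 5 endothelial markers was 1.85 to 27.6, 0.117 to 36 and 0 to 8.04 CPM, with Kdr at 22.4 in normal 3 and 22.9 in irradiated 2, Pecam1 at no more than 1.92 and Emcn at 0. That of 5 neural and Schwann cell markers was 27.3 to 64.8, 0 to 51.1 and 0.113 to 4.18 CPM, with Rbfox3 at 40.2 in irradiated 1 and S100b at 33.6 in normal 2. Of 4 fat cell markers Plin1 was at 0, while Lpl, which muscle also expresses, reached 926 CPM in normal 3, Fabp4 85.6 and Adipoq 12.3 there. The part of these cells in the results was not tested. In bulk RNA, fewer cells of a kind and less RNA per cell cannot be told apart.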

How the data were processed

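Each deposited file holds raw read counts by gene symbol for 1 library, per the file headers. Per the labels' protocols, a QuantSeq 3′ mRNA kit turned 100 ng of RNA into each library, which was read as 75 bp single ends. The submitters' processing notes name STAR, HTSeq and FastQC, with GRCm39 and mm39 as builds and no versions. No source used here gives the annotation, strand setting or duplicate handling, so overlapping, antisense and near-identical genes may share reads. The replicate number in each file's column name is 1 above that of the label, and the series' own record of files was followed.

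Of 40879 symbols 18619 had a count, and filterByExpr in edgeR 4.0.16 (R 4.3.3) kept 11980. A single quasi-likelihood model with TMM factors and group as its only term was fitted to all 9 libraries, and a gene was called at an adjusted p (Benjamini-Hochberg) under 0.05. CPM are TMM-normalised. SE are approximate, from the log2 difference and its F statistic. A gene without counts in a group was given a bound against 3 counts over that group. Floors cover counting error only. No library repeats another of its group (chi-square of 35.4 to 297 per gene between pairs). The closing section gives a check of whether equal replicate numbers pair libraries. The test was checked on simulated counts, but the condition for passing was set at a lower dispersion (spread between libraries) than these data have. The square root of their common dispersion was 1.32. At that spread, a gene that did not pass is not shown to be unchanged.

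The members and gene lists were chosen with earlier results of these data known. Folds (a bound where a group has no count, and counts alone for Ccna2 where irradiated libraries held 2) and adjusted p-values are given in each comparison for the 8 tested members with the smallest p and for Mdm2 and Ccng1, and for up to 3 genes with the smallest p in each of 3 other lists, with Cdkn1a and Trp53. Alternatives used DESeq2 1.42.0, limma 3.58.1 (voom), other scalings, filters and thresholds, a replicate block, fits of 6 libraries and fits without each library.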

Additional observations from a re-analysis of the deposited data

How the results depend on the processing

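No p53 target was called in any alternative except DESeq2. It called 1, Pmaip1, in irradiated against normal and 1, Pmaip1, in irradiated against cocultured constructs. Pmaip1 had no irradiated count, so the DESeq2 log2 values of -22.7 and -22.3 are not measured fold sizes. In irradiated against cocultured constructs the call rests on cocultured 1, the only cocultured library with a count. Counts of all called genes moved more. Irradiated against normal constructs, 7 in the model of the report, gave 130 without a low-count filter, 445 with DESeq2, 25 with limma voom, 0 in the 6 libraries alone, 23 with the replicate block, 20 without normal 3 and irradiated 1, 21 at an adjusted p under 0.10, and between 6 and 147 on leaving out each library. Cocultured against normal, 0, gave 52 without a filter, 84 with DESeq2, 1 without normal 3 and irradiated 1, and 0 without any 1 library. Irradiated against cocultured, 4, gave 9 with library totals, 153 without a filter, 473 with DESeq2, 105 with limma voom, 0 in the 6 libraries alone, 12 with the replicate block, 21 without normal 3 and irradiated 1, 8 at 0.10, and between 1 and 97 on leaving out each library. The causes were not tested.

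The median log2 of the targets against normal constructs stayed positive throughout. In irradiated constructs it was 0.57 with library totals (all genes 0.14, in place of -0.21), 0.0557 with limma voom (16 positive, 16 negative), 0.024 without normal 3 and irradiated 1, and 0.0605 to 0.59 as each library was left out. In cocultured constructs it was 0.93 with library totals (all genes 0.48, in place of -0.07) and 0.27 to 0.42 as each library was left out. Irradiated against cocultured, it was 0.31 at a mean of at least 10 CPM, -0.73 with limma voom, -0.22 with the replicate block, 0.32 without normal 3 and irradiated 1, and -0.13 to 0.31 as each library was left out.

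When some 1 library was left out, the sign turned for 15 of the 32 tested targets in irradiated against normal, 16 in cocultured against normal and 17 in irradiated against cocultured constructs. Among the genes whose fold is given in a comparison, signs turned for Mdm2 in irradiated against normal constructs (-0.20 to 0.33 as each library was left out) and, in cocultured against normal, for Phlda3 (0.14 with library totals, 0.077 without normal 3 and irradiated 1, -1.01 to 0.078 as each library was left out), Ccng1 (0.42, 0.66 and -0.77 to 0.66, and 0.093 with limma voom) and Trp53 (0.34 with library totals). Trp53 ran from -0.43 to 0.25 as each library was left out. Without irradiated 1 no count of Trp53cor1, and without cocultured 1 no count of Pmaip1, was left in the groups compared, so those fits gave no value.

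No pairing by replicate number was seen: within-group deviations of same-numbered libraries correlated at -0.0858 to 0.0520 across genes. With so few and variable libraries, this cannot exclude pairing or shared dishes. The replicate block called no target, and neither did the model without it. Pmaip1 and Trp53cor1 have only bounds where a group held no count, and the low-count filter kept Perp, Pidd1 and Ddb2 out of the test. The part of depth in this was not tested.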
